A study of Rattus norvegicus with 30 samples.

Results

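The response of rat hepatocytes to a low dose of clofibrate after 48 h was read from 10 arrays, 5 cultures given 60 uM clofibrate and 5 given the vehicle alone for the same time, out of 30 arrays in all. The arrays were chosen by their labels, and every probe set above an intensity filter was tested. Clofibrate is a lipid-lowering fibrate drug. The cells were purchased primary hepatocytes of male Sprague Dawley rats, thawed from frozen stock, plated in collagen-coated wells of 6-well plates under a Matrigel overlay and dosed on day 3 of culture. The vehicle was labelled 1% DMSO, and all groups share the cell source, the overlay and the medium. Other groups of 5 cultures received DMSO or 60 uM clofibrate for 24 h, or 1000 uM for 24 or 48 h. Each culture was 1 well measured on 1 array. Separate animals are not named in the labels, so p-values reflect only how much these cultures varied.

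Clofibrate is hydrolysed to clofibric acid, a ligand of the nuclear receptor PPAR-alpha. The receptor binds DNA as a partner of the retinoid X receptor at repeats of a hexamer spaced by a single base, and in rodent liver it switches on genes that take up, activate and oxidise fatty acids in peroxisomes and mitochondria. Rats and mice respond to such drugs with a marked increase in peroxisomes, and the same receptor lowers a set of inflammatory and plasma protein genes in liver.

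Values are MAS5 signals, the authors' linear summary of a probe set, and changes are differences of mean log2 signal, 60 uM minus DMSO, ± the standard error of a limma fit over all 30 arrays, with n = 5 arrays per group. A fold is 2 to the power of such a difference. A gene passed where its limma p-value, adjusted by the Benjamini-Hochberg method over 18625 probe sets, lay under 0.05. For a gene with several probe sets the brightest was taken, and another probe set of some genes named below did not pass, such as Acsl5 (0.082 ± 0.103), Hsd17b7 (0.074 ± 0.101), Slc11a2 (0.11 ± 0.11), Acaca (0.074 ± 0.12) and Hadha (0.16 ± 0.12). Because probe sets differ in their response, signals were not compared between genes. Each array had been scaled to the same trimmed mean, so a change in total RNA per cell could not be seen, and in these bulk samples fewer cells of a type and less RNA per cell cannot be told apart. The residual SD of the 10 arrays lay between 0.243 and 0.336, and the highest was that of replicate 1 of DMSO, which also stood apart on the first principal component of these 10 arrays (20.2% of the variance). That replicate deviated from the other DMSO arrays by at least 1 on the log2 scale in 215 of 10627 genes, against 118 to 157 for the other 4. The 3'/5' signal ratio of actin, a measure of RNA integrity, averaged 2.33 in both groups, and that of GAPDH was 1.18 in DMSO and 1.16 at 60 uM.

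At 60 uM and 48 h, 1221 of 10627 genes passed (11.5%), of which 606 were higher (5.7%) and 615 lower (5.79%). The median of the genes that rose was 0.35 and that of the genes that fell was -0.31, while the median over all genes tested was -0.01. At least 1.5-fold changes were seen in 137 genes that rose and 69 that fell, at least 2-fold in 39 and 9, and at least 4-fold in 4 and 0. Whether they passed or not, 1038 genes (9.77%) had no overlap between the 5 treated and the 5 DMSO arrays, with the treated arrays above in 505 (4.75%) and below in 533 (5.02%). Leaving out replicate 1 of DMSO gave 1452 probe sets that passed in place of 1686 (9.05%). Scaling each array to its spike-in controls instead gave 740, of which 70.8% were higher, against 51.0% of the 1686. Over all probe sets tested, lower calls went from 826 to 216 with that scaling, and higher calls from 860 to 524. Counts in the gene lists under spike-in scaling are to be read beside these totals.

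The 4 genes that rose at least 4-fold were Acot1, Ehhadh, Cyp4a1 and Spc24. Ehhadh encodes the peroxisomal bifunctional enzyme, which carries out the middle steps of beta-oxidation. Its signal was 2671, 2079, 2040, 2390 and 2538 on the DMSO arrays and 13734, 14498, 15222, 14834 and 18010 at 60 uM. The lowest treated array was far above the highest DMSO array, and the rise was 6.52-fold (2.70 ± 0.08, limma adjusted p = 1.43e-22). Cyp4a1, a P450 that hydroxylates the omega end of fatty acids, read 11724, 8707, 10785, 13338 and 15208 in DMSO and 52939, 59002, 55127, 53853 and 58089 at 60 uM, again with no overlap (4.75-fold, 2.25 ± 0.09, limma adjusted p = 4.66e-18). Acot1, a cytosolic thioesterase that releases free fatty acid from acyl-CoA, read 739, 104, 101, 78.2 and 111 in DMSO and 1760, 1413, 1481, 1570 and 1409 at 60 uM. Replicate 1 of DMSO was several times higher than the other 4 arrays, though still below every treated array. The other 4 DMSO signals lay under the filter signal of 255, so the gene was tested through the clofibrate groups, where it is high. The change of 3.38 ± 0.47 (limma adjusted p = 2.63e-06) became 3.96 without that replicate. Spc24, a kinetochore subunit of dividing cells, read 1027, 1173, 1212, 1329 and 1338 in DMSO and 5438, 5499, 4939, 4876 and 4730 at 60 uM, with all treated arrays above all DMSO arrays (2.07 ± 0.07, limma adjusted p = 8.06e-21).

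**Figure D1:**
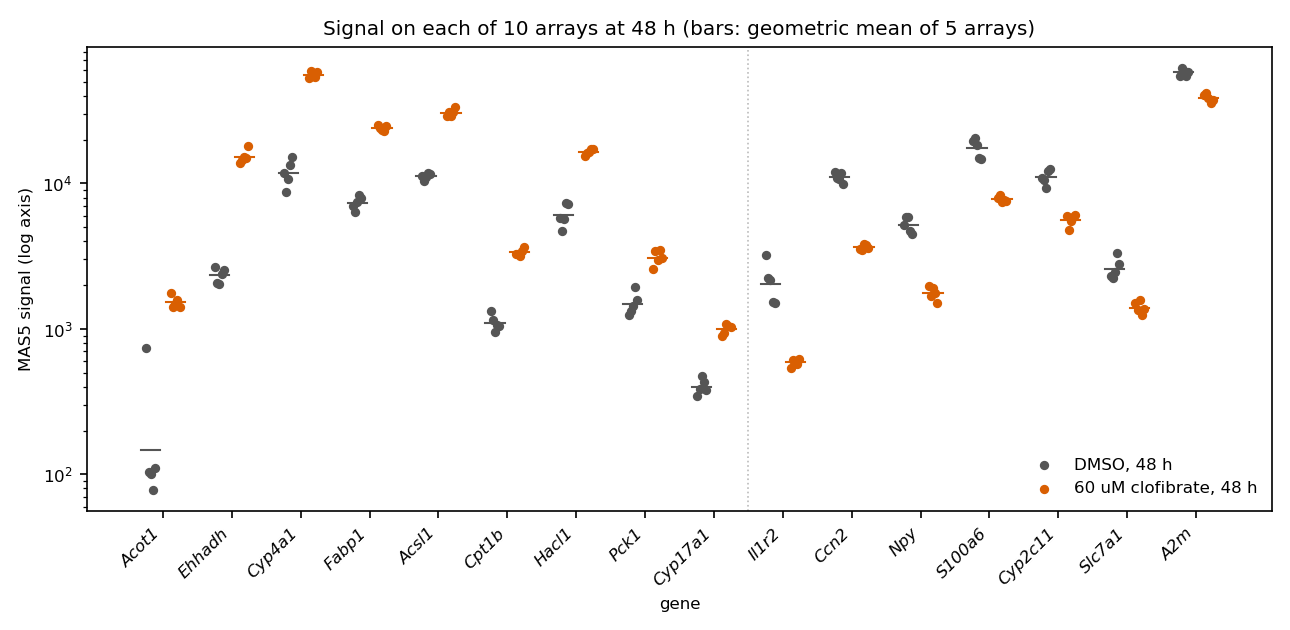
MAS5 signal on a log axis for 16 genes at 48 h, with each point 1 array, DMSO in grey and 60 uM clofibrate in orange, and bars at the geometric mean of 5 arrays. The 9 genes left of the dotted line were higher and the 7 to its right lower at 60 uM, and in each the groups did not overlap; the single high DMSO point of Acot1 is replicate 1, at 739.

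Fabp1, the liver fatty acid binding protein that carries fatty acids through the cytosol, read 6990, 6361, 7413, 8353 and 7908 in DMSO and 25322, 23908, 23249, 22750 and 24615 at 60 uM. The groups lay far apart (3.25-fold, 1.70 ± 0.06, limma adjusted p = 6.76e-21). Fabp3, the heart form, read 369, 89.9, 165, 386 and 84.9 in DMSO and 637, 584, 502, 770 and 620 at 60 uM, so it was higher on every treated array, but the DMSO arrays split into moderate values and 3 under the filter signal of 255 (1.79 ± 0.39, limma adjusted p = 0.00167). Fabp5, the epidermal form, moved the other way by -0.39 ± 0.07 (limma adjusted p = 0.000243). Of the 8 binding protein genes tested, 2 rose and 1 fell, and the list median was 0.06. Over all genes tested, 5.7% rose and 5.79% fell. Among acyl-CoA synthetases and uptake genes, 10 of 23 rose and 3 fell (7 and 1 with spike-in scaling), with a median of 0.16. Acsl1, which activates long-chain fatty acids, read 11188, 10330, 10982, 11820 and 11689 in DMSO and 29085, 30804, 29097, 31102 and 33684 at 60 uM, without overlap (2.74-fold, 1.46 ± 0.05, limma adjusted p = 5.31e-20). The scavenger receptor and fatty acid translocase Cd36 rose by 0.90 ± 0.15 and the fatty acid transporter Slc27a2 by 0.52 ± 0.04. Acsl5 rose by 0.37 ± 0.06. The acetyl-CoA synthetase Acss2 fell by 0.36 ± 0.05 and Acsl4, which prefers arachidonate, by 0.29 ± 0.05; the call of Acsl4 ended with spike-in scaling.

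Because PPAR-alpha binds a direct repeat with 1 base between the half-sites (DR1), the 250 bases before the start of each gene were searched on both strands for 2 copies of AGGNCA in the same direction with any 1 base between them. RefSeq promoters of the GRCr8 assembly could be matched to 8895 of the 10627 genes. The motif was present in 0.326% of them and in 0.353% of all 27457 promoters of the table. Among 516 matched genes that rose it was in 6 (1.16%), Fabp1, Asgr1, Cyp2d3, Gys2 and, named after their values were seen, Pdzk1 and Dnajc19. The call of Dnajc19 (limma adjusted p = 0.043) was lost in 12 of 20 alternatives. Among 521 that fell it was in 1 (0.192%), Plpp1, also named after its value was seen, whose call was lost in 4 of 20. Of 108 matched genes that rose at least 1.5-fold, 1 had it (0.926%), Fabp1. In the 8 lists of fatty acid oxidation, activation, binding and storage, 66 matched genes rose and 1 of them had it (1.52%). Among 7858 matched genes that did not pass it was in 22 (0.28%). The 4 sites below belong to genes whose changes are given in this text, and are shown with 20 bases on either side, 5′ to 3′ on the strand of the gene, with the motif in capitals. In Fabp1 the motif lies on the opposite strand.
Fabp1: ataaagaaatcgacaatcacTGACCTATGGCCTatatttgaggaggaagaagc
Gys2: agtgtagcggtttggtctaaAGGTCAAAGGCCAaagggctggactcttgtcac
Asgr1: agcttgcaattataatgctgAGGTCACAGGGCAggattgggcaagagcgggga
Cyp2d3: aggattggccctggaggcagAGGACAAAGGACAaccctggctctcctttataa
In GRCr8 these windows are chr4:104749243-104749295 on the plus strand, chr4:177137284-177137336 on the minus strand, chr10:55274338-55274390 on the plus strand and chr7:115802183-115802235 on the minus strand. The motif begins 77 bases before the start of Fabp1, 80 before Gys2, 121 before Asgr1 and 73 before Cyp2d3. A match is a description of the letters and not a measured binding site. Besides Fabp1, the signals of these genes changed by less than 1.5-fold: Gys2, the liver glycogen synthase, rose by 0.37 ± 0.05, the asialoglycoprotein receptor gene Asgr1 by 0.38 ± 0.04 and the P450 Cyp2d3 by 0.58 ± 0.09.

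The carnitine shuttle, which carries acyl groups across the mitochondrial membranes, had the largest share of higher genes among the 31 lists in the plot of list shares. Of 9 genes tested 8 rose and none fell, with a median of 0.61. Cpt1b, the muscle form of the carnitine palmitoyltransferase of the outer membrane, read 1335, 1160, 948, 1070 and 1044 in DMSO and 3287, 3288, 3170, 3412 and 3627 at 60 uM. Every treated array was above every DMSO array (3.04-fold, 1.60 ± 0.07, limma adjusted p = 1.45e-17). The liver form Cpt1a, named outside the naming rule after its value was seen, rose by 0.81 ± 0.10. The carnitine acetyltransferase Crat rose by 0.87 ± 0.06, the peroxisomal octanoyltransferase Crot by 0.61 ± 0.04, the translocase Slc25a20 by 0.70 ± 0.06 and the inner membrane transferase Cpt2 by 0.57 ± 0.05. Mlycd, which breaks down the Cpt1 inhibitor malonyl-CoA, rose by 0.56 ± 0.05.

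In mitochondrial beta-oxidation 16 of 22 genes rose and none fell, with a median of 0.43. The medium-chain dehydrogenase Acadm read 7069, 6601, 7494, 8703 and 7995 in DMSO and 15550, 15458, 15038, 15929 and 16743 at 60 uM, with no overlap (2.09-fold, 1.06 ± 0.06, limma adjusted p = 3.1e-14). Acaa2, the thiolase of the last step, rose by 0.93 ± 0.05, Hadha, the alpha subunit of the trifunctional protein, by 0.84 ± 0.05, and the enoyl-CoA isomerase Eci1 by 0.83 ± 0.05. The very-long-chain dehydrogenase Acadvl rose by 0.68 ± 0.05 and Hadh by 0.63 ± 0.04. In peroxisomal beta-oxidation and its partners 13 of 22 rose and 1 fell, with a median of 0.21. The count of higher genes was 9 with median centring or spike-in scaling and 12 without replicate 1 of DMSO. Hacl1, a lyase that shortens 2-hydroxy fatty acids, read 5759, 4704, 5733, 7390 and 7179 in DMSO and 15468, 16267, 16533, 17363 and 17220 at 60 uM. The groups lay apart (2.73-fold, 1.45 ± 0.07, limma adjusted p = 6.44e-16). Ech1 rose by 1.07 ± 0.06, the 2,4-dienoyl-CoA reductase Decr2 by 1.00 ± 0.06, Eci2 by 0.75 ± 0.04 and Abcd3, a transporter of the peroxisomal membrane, by 0.70 ± 0.05. The member that fell was Hao2, a peroxisomal 2-hydroxy acid oxidase, which read 3610, 3470, 3898, 4468 and 4089 in DMSO and 2478, 2144, 2828, 2515 and 2432 at 60 uM (-0.66 ± 0.14, limma adjusted p = 0.00115).

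Of 23 peroxisome biogenesis and membrane genes 7 rose and 1 fell (5 and 0 with spike-in scaling), with a median of 0.16. Without such rescaling 5.7% of all genes tested rose and 5.79% fell. Pex11a, a peroxisome division factor, read 11183, 10741, 10160, 10802 and 12248 in DMSO and 15955, 15704, 17488, 15295 and 16003 at 60 uM, without overlap (0.55 ± 0.05, limma adjusted p = 1.46e-09). The peroxisomal protease Lonp2 rose by 0.48 ± 0.04 and Pex16 by 0.41 ± 0.06. Among the Cyp4 hydroxylases and the aldehyde dehydrogenase that follows them, 3 of 10 rose, namely Cyp4a1, Cyp4a3 (1.38 ± 0.08) and Aldh3a2 (0.31 ± 0.05), and none fell. The other 7 did not pass, with Cyp4f1 at -0.25 ± 0.08 and Cyp4v3 at 0.12 ± 0.04; both passed under some alternatives. Of 11 thioesterases 9 rose and none fell, with a median of 0.52. Acot4 rose by 0.94 ± 0.07, the mitochondrial Acot2 by 0.85 ± 0.06, Acot12 by 0.82 ± 0.09 and the peroxisomal Acot8 by 0.81 ± 0.08. Probe sequences were not used here, so cross-hybridisation among close family members such as the Acot and Cyp4a genes was not tested.

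Lipid droplet and lipolysis genes had 13 of 20 members higher and 1 lower, with a median of 0.36. With spike-in scaling 11 were higher and 0 lower, and without replicate 1 of DMSO 13 and 0. Mgll, the monoacylglycerol lipase, read 3695, 3467, 2963, 3500 and 3359 in DMSO and 6141, 6263, 5935, 5580 and 6034 at 60 uM, with no overlap (0.82 ± 0.06, limma adjusted p = 7.03e-12). Cidea, a protein that enlarges lipid droplets, rose by 0.44 ± 0.04, Dgat1, which makes triglyceride, by 0.51 ± 0.05, Hilpda, a lipolysis inhibitor, by 0.59 ± 0.07 and Fitm2 by 0.64 ± 0.07. Among other PPAR-alpha targets 16 of 29 rose and 2 fell, with a median of 0.33. Vnn1, which makes pantothenate from pantetheine, read 5626, 5117, 5675, 6519 and 6453 in DMSO and 12127, 11796, 12002, 11907 and 12154 at 60 uM, and its treated arrays varied little (1.04 ± 0.07, limma adjusted p = 2.7e-13). Pank1, the first enzyme of coenzyme A synthesis, rose by 0.94 ± 0.05, the retinol saturase Retsat by 0.93 ± 0.04, the epoxide hydrolase Ephx2 by 0.81 ± 0.04, Gpd1 by 0.77 ± 0.05 and the liver transcription factor Creb3l3 by 0.75 ± 0.05. Pdk4, a kinase that shuts off pyruvate dehydrogenase, read 5822, 4756, 4752, 5102 and 5120 in DMSO and 9414, 10476, 8898, 10083 and 10235 at 60 uM, without overlap (0.94 ± 0.06, limma adjusted p = 4.37e-13). In the list of pyruvate dehydrogenase control and ketone bodies 4 of 18 rose and none fell, against 5.7% and 5.79% of all genes tested. The thiolase Acat1 was at 0.92 ± 0.05 and the hydroxybutyrate dehydrogenase Bdh1 at 0.66 ± 0.08. Named after its value was seen, Plin2, a coat protein of lipid droplets, rose by 0.24 ± 0.05, and its call ended under either median centring or spike-in scaling (limma adjusted p up to 0.0546).

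**Figure D2:**
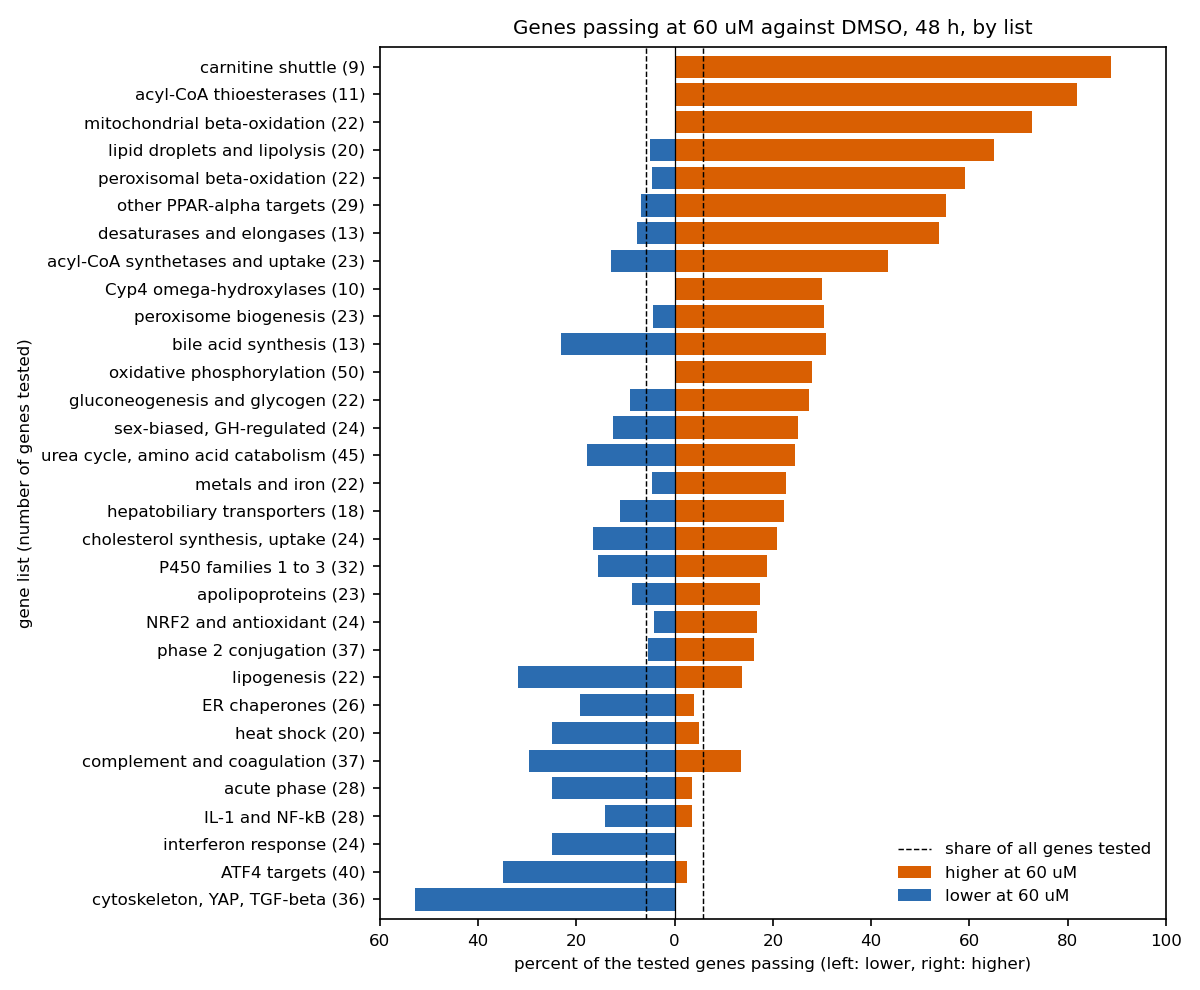
Percent of the tested genes of 31 gene lists that passed at 60 uM against DMSO at 48 h, higher to the right in orange and lower to the left in blue, with the number of genes tested in brackets. Dashed lines mark the shares over all genes tested (5.7% higher, 5.79% lower); the carnitine shuttle list has 8 of 9 genes higher and the cytoskeletal list 19 of 36 lower.

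Ppara lay below the intensity filter and was not tested. Of 11 receptor and cofactor genes 2 rose and none fell, against 5.7% higher and 5.79% lower over all genes tested. Rxrg, a retinoid X receptor, read 2260, 2158, 2364, 2788 and 1970 in DMSO and 3894, 3090, 4742, 4463 and 2992 at 60 uM, higher on every treated array (0.72 ± 0.10, limma adjusted p = 1.68e-06). A second, dimmer probe set of Rxrg was at -0.15 ± 0.30 and did not pass (limma adjusted p = 0.852). Ncor1, a co-repressor, was 0.18 higher (limma adjusted p = 0.0217), a call that ended under median centring, spike-in scaling and other alternatives. Ppard (-0.16 ± 0.09), Pparg (-0.19 ± 0.18) and Rxra (0.39 ± 0.38) did not pass, and the DMSO arrays of Rxra ranged from 171 to 473.

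Glucose genes were mixed, with 6 of 22 higher, 2 lower and a median of -0.02, which spike-in scaling turned to 0.01 with 5 higher and 1 lower. For this list and those below, the shares over all genes tested without such rescaling were 5.7% higher and 5.79% lower. Pck1, the gluconeogenic phosphoenolpyruvate carboxykinase, read 1238, 1319, 1436, 1928 and 1575 in DMSO and 2590, 3421, 2987, 3461 and 3068 at 60 uM. The groups did not overlap (2.09-fold, 1.06 ± 0.11, limma adjusted p = 1.68e-08). The pyruvate carboxylase Pc rose by 0.61 ± 0.09 and the gluconeogenic phosphatase Fbp1 by 0.53 ± 0.05. Gckr, which binds glucokinase, rose by 0.44 ± 0.06. In lipogenesis 3 of 22 genes rose and 7 fell, with a median of -0.03 that became 0.01 with spike-in scaling, under which 2 fell, and 0.0036 without replicate 1 of DMSO. Malic enzyme Me1 rose by 0.49 ± 0.06 and Agpat2 by 0.35 ± 0.06. The carbohydrate-responsive factor Mlxipl fell by 0.43 ± 0.10, the phosphatidate phosphatase Lpin1 by 0.39 ± 0.06 and the acetyl-CoA carboxylase Acaca by 0.30 ± 0.07, the last of which lost its call with spike-in scaling. Desaturases and elongases had 7 of 13 higher and 1 lower, with a median of 0.24. Fads2, the delta-6 desaturase, read 906, 871, 1030, 835 and 730 in DMSO and 1728, 1188, 1171, 1797 and 1793 at 60 uM, all treated arrays above the DMSO arrays (0.79 ± 0.14, limma adjusted p = 0.000119). Fads1 rose by 0.52 ± 0.11 and Hsd17b12 by 0.48 ± 0.05, while Fads3 fell by 0.54 ± 0.09.

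In cholesterol synthesis and uptake 5 of 24 rose and 4 fell, with changes such as 0.34 ± 0.06 for Hsd17b7. With spike-in scaling 2 rose and 0 fell, with median centring 2 and 3, and without replicate 1 of DMSO 4 and 2. Over all genes tested on all arrays without rescaling, 5.7% rose and 5.79% fell, also beside the lists that follow. In bile acid synthesis 4 of 13 rose and 3 fell. Cyp8b1, the sterol 12-alpha-hydroxylase that sets the ratio of cholic acid, read 13662, 12899, 14750, 16072 and 16497 in DMSO and 25552, 22252, 22100, 22064 and 25731 at 60 uM, without overlap (0.67 ± 0.06, limma adjusted p = 2.69e-10). Cyp27a1, the sterol 27-hydroxylase, fell by 0.36 ± 0.04 and the bile acid receptor gene Nr1h4 rose by 0.40 ± 0.07. Among hepatobiliary transporters 4 of 18 rose and 2 fell. Abcc2, the canalicular pump for conjugates, read 27977, 29880, 26968, 28253 and 28923 in DMSO and 19156, 19484, 18434, 17972 and 17896 at 60 uM, lower on every treated array (-0.61 ± 0.06, limma adjusted p = 1.99e-09). The phospholipid pump Abcb4 fell by 0.53 ± 0.09, and the bile acid uptake carrier Slc10a1 rose by 0.43 ± 0.07. The apolipoprotein list had 4 of 23 higher and 2 lower, and 3 and 1 with spike-in scaling. Mttp, which loads lipid onto apolipoprotein B, rose by 0.55 ± 0.05. Apoa5, an activator of plasma triglyceride lipolysis, read 13858, 14820, 13196, 12159 and 12507 in DMSO and 8837, 7681, 8137, 8805 and 9028 at 60 uM (-0.65 ± 0.07, limma adjusted p = 1.08e-08).

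Drug metabolism showed rises and falls side by side, with 6 of 32 P450 genes of families 1 to 3 higher and 5 lower, and 6 of 37 conjugation genes higher and 2 lower. For these lists and those below, the shares over all genes tested were 5.7% higher and 5.79% lower. With spike-in scaling 5 P450 genes were higher and 3 lower, and 4 conjugation genes higher and 1 lower. After quantile normalization 8 P450 genes were higher and 5 lower, and 6 conjugation genes higher and 4 lower. Cyp2c11, the main male-specific P450 of rat liver, read 10849, 10634, 9293, 12098 and 12658 in DMSO and 5933, 4762, 5523, 5897 and 6066 at 60 uM. The treated arrays were all lower than any DMSO array (-0.98 ± 0.09, limma adjusted p = 7.96e-10). Cyp3a2 rose by 0.76 ± 0.12 and Cyp2j4, an arachidonate epoxygenase, by 0.47 ± 0.06, while Cyp1a2 fell by 0.57 ± 0.08. The sulfotransferase Sult1c3 read 730, 627, 687, 776 and 746 in DMSO and 2277, 1708, 2197, 2152 and 2024 at 60 uM, well above DMSO on every array (2.9-fold, 1.53 ± 0.14, limma adjusted p = 3.45e-10). Gsta4 rose by 0.42 ± 0.04 and Ugt2b1 fell by 0.52 ± 0.08. Of 24 NRF2 and antioxidant genes 4 rose and 1 fell, while spike-in scaling gave 1 higher and median centring 2. The heme oxygenase Hmox1 rose by 0.25 ± 0.05 and the cystine transporter Slc7a11 fell by 0.53 ± 0.10; the call of Hmox1 ended with spike-in scaling. In oxidative phosphorylation 14 of 50 genes rose and none fell, each by little (median 0.09), for example the succinate dehydrogenase subunit Sdha (0.23 ± 0.04). After median centring 2 of them passed (median 0.069), and under spike-in scaling 1 (median 0.129).

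In the list of targets of ATF4, a transcription factor of amino acid stress, 14 of 40 genes fell, 1 rose and 25 did not pass, with 9 changes above 0 and a median of -0.23. At 24 h, 3 had fallen and none risen, and the difference between the times passed in 0 of the 40. Over all genes tested, 5.7% rose and 5.79% fell at 48 h, and 4.55% rose and 3.76% fell at 24 h. Slc7a1, a transporter of arginine and lysine, read 2301, 2248, 2444, 3341 and 2799 in DMSO and 1504, 1344, 1583, 1244 and 1360 at 60 uM. Every treated array was lower (-0.89 ± 0.11, limma adjusted p = 2.07e-07), but a second probe set of the gene was at 0.0053 ± 0.098 and did not pass (limma adjusted p = 0.988). Phgdh, the first enzyme of serine synthesis, fell by 0.47 ± 0.09, the stress-induced phosphatase subunit Ppp1r15a by 0.41 ± 0.08, the nuclear stress protein Nupr1 by 0.33 ± 0.06 and the cystathionine lyase Cth by 0.34 ± 0.07. Cth lost its call with spike-in scaling, where 6 of the 40 fell and the median was -0.20. On single arrays the mean of the list lay between -0.27 and -0.11 relative to the DMSO mean at 60 uM and between -0.11 and 0.15 in DMSO, so that 4 of the 5 treated arrays lay below all DMSO arrays. In the ER chaperone list 1 of 26 rose and 5 fell, and in the heat shock list 1 of 20 rose and 5 fell. With spike-in scaling 0 and 1 of them fell. Cryab, a small heat shock protein, read 7669, 7541, 7102, 6404 and 6078 in DMSO and 3580, 3957, 3631, 4096 and 4079 at 60 uM, without overlap (-0.84 ± 0.09, limma adjusted p = 2.68e-08). Dnajb3, a co-chaperone gene, was the member that rose (limma adjusted p = 0.000171), with DMSO signals of 99.7, 255, 135, 203 and 55.2 and treated signals of 491, 340, 314, 390 and 384. Its highest DMSO signal was at the filter signal of 255 and the lowest lay below the mean control floor of 65.6, so the size of the change is uncertain. With its DMSO signals at 48 h at or under the filter, the gene was tested through other groups, 60 uM among them, where it is high.

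Amino acid catabolism had 11 of 45 genes higher and 8 lower, against 6 and 4 with spike-in scaling and 14 and 8 after quantile normalization. Without such rescaling 5.7% of all genes tested were higher and 5.79% lower. Tat, the tyrosine aminotransferase, fell by 0.62 ± 0.08 and Tdo2, the tryptophan dioxygenase, by 0.48 ± 0.07. Acmsd, which diverts tryptophan carbon away from NAD synthesis, read 1647, 1526, 1890, 1635 and 1839 in DMSO and 787, 745, 1246, 1114 and 825 at 60 uM, lower on every treated array (-0.88 ± 0.12, limma adjusted p = 1.07e-06). The histidine catabolism gene Uroc1 rose by 0.77 ± 0.08 and the valine catabolism gene Hibch by 0.49 ± 0.05.

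In the complement and coagulation list 11 of 37 fell and 5 rose, and in the acute phase list 7 of 28 fell and 1 rose. Spike-in scaling left 5 and 4 lower and 1 and 0 higher, and median centring left 2 and 0 higher. Without such rescaling 5.79% of all genes tested were lower and 5.7% higher. Serpind1, the thrombin inhibitor heparin cofactor II, read 1463, 1749, 1677, 1972 and 1885 in DMSO and 1001, 842, 1043, 995 and 737 at 60 uM. The groups did not overlap (-0.93 ± 0.11, limma adjusted p = 1.34e-07). Klkb1, prekallikrein, read 3153, 3157, 3265, 3452 and 4758 in DMSO and 1812, 1839, 2263, 1873 and 2001 at 60 uM, with replicate 5 of DMSO above the rest (-0.85 ± 0.14, limma adjusted p = 3.58e-05). The complement proteases C1s and C1r fell by 0.49 ± 0.06 and 0.43 ± 0.07. A2m, alpha-2-macroglobulin, an acute phase protease inhibitor of the rat, read 55135, 62039, 59494, 54933 and 58466 in DMSO and 40622, 41858, 38756, 35501 and 37581 at 60 uM, again with no overlap (-0.58 ± 0.06, limma adjusted p = 4.19e-08). Steap4, a metalloreductase, fell by 0.90 ± 0.11, Lbp, which binds endotoxin, by 0.48 ± 0.06 and the fetuin gene Ahsg by 0.38 ± 0.04. On single arrays the mean of the acute phase list lay between -0.23 and -0.09 at 60 uM relative to the DMSO mean, below all 5 DMSO arrays.

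Among cytokine genes, 4 of 28 interleukin-1 and NF-kB genes fell and 1 rose (2 fell with spike-in scaling), and 6 of 24 interferon genes fell and none rose. Beside these counts, 5.79% of all genes tested fell and 5.7% rose. Il1r2, a decoy receptor that traps interleukin-1, had the deepest fall among the genes that passed. It read 3197, 2245, 2158, 1520 and 1504 in DMSO and 538, 616, 601, 571 and 617 at 60 uM, and the treated arrays were close together and far below DMSO (3.47-fold lower, -1.80 ± 0.17, limma adjusted p = 7.81e-10). The chemokine genes Cxcl16 and Cxcl12 went opposite ways, the first falling by 0.73 ± 0.09 and the second rising by 0.78 ± 0.12. In the interferon list Bst2 fell by 0.38 ± 0.09 and Tap1, the peptide transporter of antigen presentation, by 0.50 ± 0.13 (not with spike-in scaling), and 2 of 24 genes were lower with spike-in scaling. The mean of that list in replicate 1 of DMSO was -0.25 relative to the DMSO mean and overlapped the treated arrays, of which only 1 lay below it. Without that replicate 6 of 24 genes were lower.

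**Figure D3:**
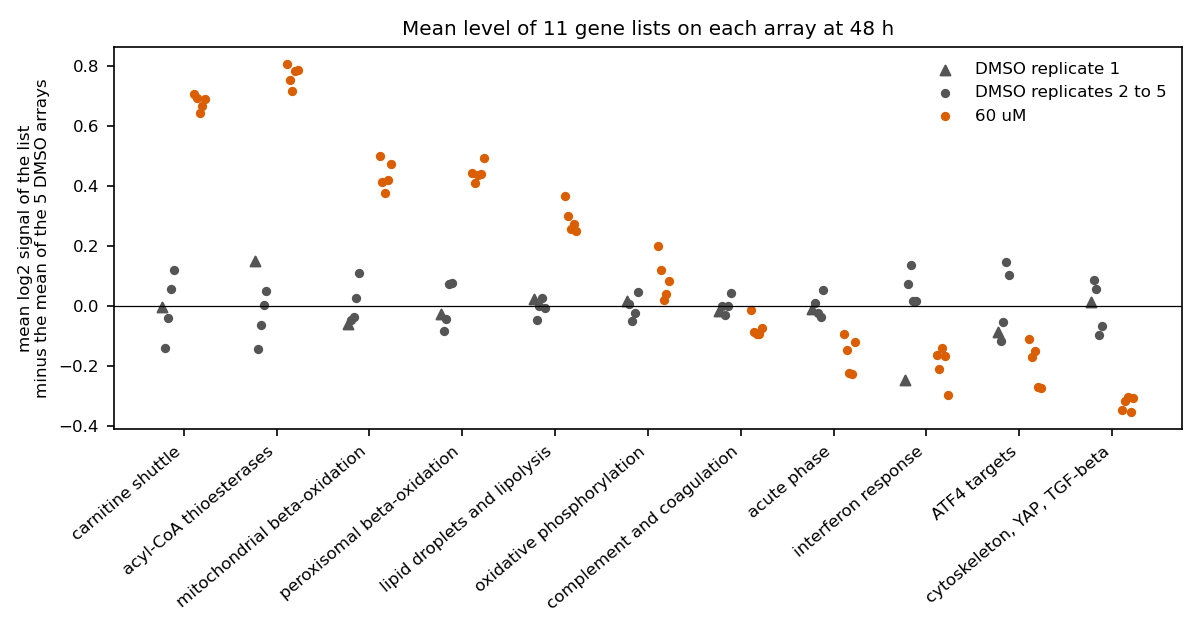
Mean log2 signal of the tested genes of 11 lists on each array at 48 h, relative to the mean of the 5 DMSO arrays; triangles are replicate 1 of DMSO, grey points the other DMSO arrays and orange points 60 uM. The 5 lists on the left were higher on all treated arrays (carnitine shuttle 0.65 to 0.71), the cytoskeletal list was lower on all (-0.35 to -0.30), and the interferon list overlapped through replicate 1 of DMSO.

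The largest share of lower genes was in the list of cytoskeletal genes and targets of YAP and TGF-beta, pathways that are active in flattened, spreading cells. Of 36 tested 19 fell and none rose, with a median of -0.25, against 9 lower at 24 h. The difference between the times passed in 1 of the 36. Of all genes tested, 5.79% fell at 48 h and 3.76% at 24 h. Ccn2, a secreted matricellular protein and a classical YAP target, read 12048, 10840, 10702, 11800 and 9881 in DMSO and 3541, 3492, 3859, 3744 and 3601 at 60 uM. The treated arrays were close together, with no overlap (3.03-fold lower, -1.60 ± 0.10, limma adjusted p = 4.02e-14). S100a6, a calcium-binding protein, read 19478, 20621, 18352, 14923 and 14705 in DMSO and 7999, 8261, 7435, 7702 and 7577 at 60 uM, with no overlap (-1.16 ± 0.08, limma adjusted p = 7.9e-13). The intermediate filament gene Vim fell by 0.80 ± 0.10, the tropomyosin gene Tpm4 by 0.40 ± 0.06 and the tubulin gene Tubb5 by 0.39 ± 0.05. The count of lower genes was 14 without replicate 1 of DMSO and 7 with spike-in scaling, and the median was -0.28 and -0.22. Over all probe sets tested, lower calls went from 826 to 687 and 216 in these 2 settings. In the cell cycle list 2 of 26 rose, Spc24 and Cdk2 (0.42 ± 0.12, a call lost with median centring and without some single arrays), and none fell, with a median of 0.07. The proliferation gene Pcna was at -0.10 ± 0.05 and did not pass. In the p53 list 3 of 16 fell and none rose, led by the stress sensor Sesn1 (-0.79 ± 0.10), and 1 fell with spike-in scaling. Beside the counts of the cell cycle and p53 lists, 5.7% of all genes tested rose and 5.79% fell.

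Hepatocyte markers gave summed signals of 554656 to 658535 in DMSO and 531359 to 643189 at 60 uM. Of 11 tested 1 rose (Asgr1) and 1 fell (Ahsg), and the median was -0.0032. The shares over all genes tested were 5.7% higher and 5.79% lower. Among markers of other liver cells, 13 of 18 Kupffer cell and macrophage genes were above the filter, with Cd163, Adgre1, Marco, Vsig4 and Ptprc below it. Their summed signal was 14351 to 15168 in DMSO and 12147 to 13737 at 60 uM, ranges that did not overlap, but 8 of the 13 changes were above 0, with a median of 0.11 that became -0.01 without replicate 1 of DMSO. The mean log2 level of the list on single arrays, relative to the DMSO mean, was -0.16 to 0.20 at 60 uM and -0.16 to 0.12 in DMSO, which overlap. Of the 13, 1 passed, Lyz2, the macrophage lysozyme, which fell by 0.39 ± 0.08 (not with spike-in scaling). The endothelial list had 6 of 12 above the filter and the stellate list 6 of 13, with 0 passing in each and summed signals that overlapped. The bile duct list had 2 of 8, and the lymphoid list 0 of 11. The part of macrophage genes in the falls of the plasma protein, interleukin and cytoskeletal lists was not tested.

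Outside the gene lists the largest rises included Cacna2d3, an auxiliary subunit of calcium channels, which read 116, 295, 339, 398 and 433 in DMSO and 875, 967, 954, 1046 and 997 at 60 uM. It was higher on every treated array (1.74 ± 0.21, limma adjusted p = 1.51e-07). Replicate 1 of DMSO, at 116, was the lowest array and lay under the filter signal of 255. Over 20 alternatives the change ranged from 1.41 to 1.89 and the call was kept. Lrrc39 rose by 1.48 ± 0.10, the GABA and taurine transporter Slc6a13 by 1.34 ± 0.12, the phosphatase Acp3 by 1.34 ± 0.13, the carboxylesterase Ces1d by 1.13 ± 0.09 and Aig1, which hydrolyses fatty acid esters of hydroxy fatty acids, by 1.16 ± 0.05. Cyp17a1, the steroid 17-alpha-hydroxylase, read 344, 383, 476, 432 and 380 in DMSO and 889, 940, 1087, 1040 and 1037 at 60 uM, without overlap (2.49-fold, 1.31 ± 0.11, limma adjusted p = 1.81e-10). Pemt, which makes phosphatidylcholine by methylation, rose by 0.95 ± 0.09, the aminopeptidase Anpep by 1.07 ± 0.06, the thyroxine-binding globulin gene Serpina7 by 1.13 ± 0.12 and the protease inhibitor Serpine2 by 1.08 ± 0.11. Among the falls, Npy, neuropeptide Y, read 5163, 5905, 5886, 4683 and 4509 in DMSO and 1970, 1692, 1913, 1773 and 1513 at 60 uM, far apart (-1.56 ± 0.08, limma adjusted p = 1.9e-15). Rab11fip5 fell by 0.96 ± 0.11, the guanylate cyclase receptor Gucy2c by 0.91 ± 0.08, the lipase-like hydrolase Abhd2 by 0.91 ± 0.08 and the caveolar coat gene Cav1 by 0.77 ± 0.14. Fkbp14 (1.51 ± 0.43, limma adjusted p = 0.0214) and Tle3 (-0.90 ± 0.24, limma adjusted p = 0.0133) depended on single arrays, and 4 of the 5 DMSO signals of Fkbp14 lay under the filter signal of 255. Fkbp14 lost its call without replicate 3 or 4 of DMSO or replicate 3 of 60 uM, and Tle3 without replicate 5 of 60 uM, with limma adjusted p-values of up to 0.0814 and 0.0663.

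The response at 48 h was set against that at 24 h, which came from other cultures with their own DMSO arrays. At 24 h, 884 genes passed (8.32%), 484 higher (4.55%) and 400 lower (3.76%). Of the 1222 probe sets that passed at 24 h (6.56%), 52.2% were higher, against 74.9% after median centring and 91.3% after spike-in scaling. Of the 1221 genes of 48 h, 609 also passed at 24 h (49.9% of the 48 h genes and 68.9% of the 24 h genes), and 606 of these had the same sign. Over all 1221, 1150 (94.2%) had the same sign at 24 h. In genes that passed at both times the median ratio of the change at 48 h to that at 24 h was 1.07. The difference between the effects was itself tested, and 16 genes passed (0.151%), 7 upward (0.0659%) and 9 downward (0.0847%). That test has larger errors than either effect, so a gene that passed at 48 h alone is not shown to differ between the times.

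Fabp1 rose further, from 1.14 ± 0.06 at 24 h to 1.70 ± 0.06 at 48 h, a difference of 0.56 ± 0.08 (limma adjusted p = 0.000234). Afm, afamin, a vitamin E carrier of plasma, read 8246, 8538, 8066, 8690 and 8272 in DMSO and 8942, 9630, 8481, 8575 and 8759 at 60 uM at 24 h. At 48 h the DMSO arrays read 2971, 3856, 3801, 4442 and 3804 and the 60 uM arrays 6442, 6551, 6592, 7286 and 5928. The effect was 0.09 at 24 h and 0.81 at 48 h (difference 0.72 ± 0.09, limma adjusted p = 0.00014). Cyp17a1 went from 0.38 to 1.31 (difference 0.93 ± 0.16, limma adjusted p = 0.00527), and Fer1l5, a member of the ferlin family, from 0.29 to 0.86 (0.57 ± 0.09, limma adjusted p = 0.0028). With spike-in scaling the differences of Fabp1, Afm, Cyp17a1 and Fer1l5 no longer passed, with limma adjusted p-values of 0.194, 0.138, 0.138 and 0.372. That of Cyp17a1 was also lost when only the groups compared were fitted (0.0830), and that of Fer1l5 with median centring (0.0580).

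Il1r2 fell later. At 24 h the gene read 2084, 3318, 3544, 3740 and 2743 in DMSO and 1874, 2173, 2549, 2449 and 1669 at 60 uM, overlapping ranges. Its change of -0.51 ± 0.17 at 24 h fell just short of passing (limma adjusted p = 0.0576). The difference between the times was -1.28 ± 0.23 (limma adjusted p = 0.0108). Npy fell by 0.69 at 24 h and 1.56 at 48 h (difference -0.86 ± 0.12, limma adjusted p = 0.00018), and S100a6 by 0.48 and 1.16 (-0.68 ± 0.11, limma adjusted p = 0.00315). Pglyrp1, a peptidoglycan recognition protein, also fell further at 48 h (-0.47 ± 0.09, limma adjusted p = 0.0187). Tgif1, a homeobox repressor of TGF-beta signals, differed the other way round: it was 0.54 ± 0.06 higher at 24 h and at -0.11 ± 0.06 at 48 h, where it did not pass (difference -0.65 ± 0.09, limma adjusted p = 0.000158). Its DMSO signal was 3045, 2806, 3172, 3326 and 3167 at 24 h and 5085, 4197, 5017, 5057 and 5053 at 48 h, and the 60 uM arrays read 4530, 4657, 4695, 4538 and 4190 and 4189, 4779, 4408, 4477 and 4770. Lipt2, a lipoyl transferase of mitochondria, behaved likewise (0.93 ± 0.14 and -0.20 ± 0.14, limma adjusted p of the difference = 0.008). The differences of Il1r2, Npy, S100a6, Tgif1 and Lipt2 passed under each of the 30 alternatives run. Of the other 7, Retsat lost its call in 21 of 30, Pla2g15 in 17, Smap2 in 14, Anp32a and Fundc2 in 7, Amn in 6 of 29, and Pglyrp1 in 4.

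**Figure D4:**
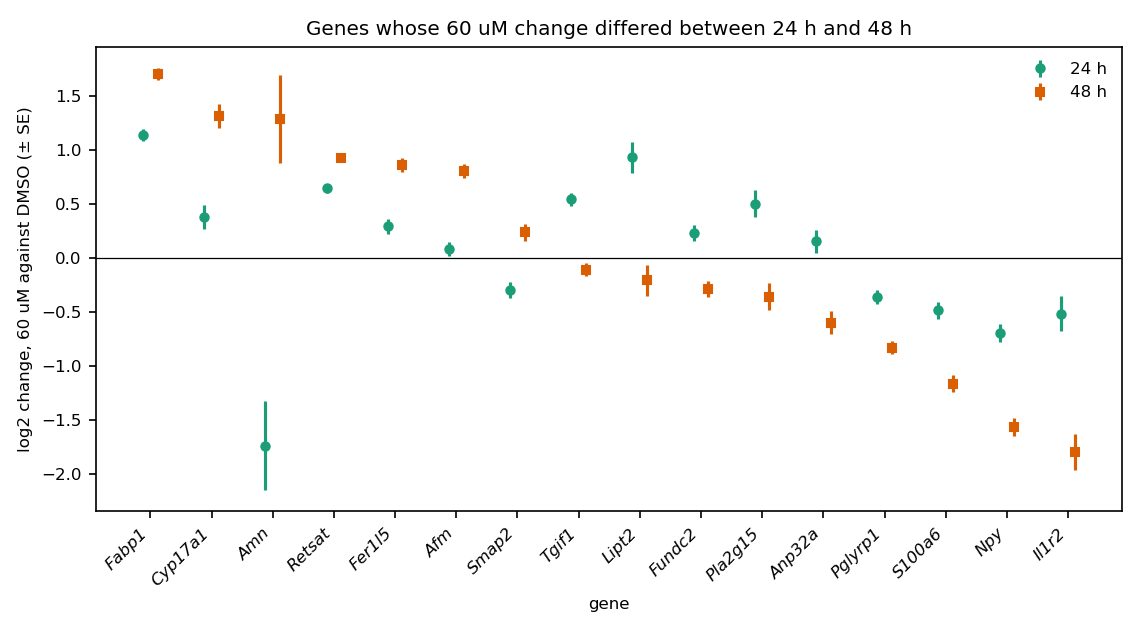
Log2 change at 60 uM against DMSO, ± the standard error of the limma fit, at 24 h (green circles) and 48 h (orange squares) for the 16 genes whose difference between the times passed. Fabp1, Cyp17a1 and Afm were further above 0 at 48 h, Il1r2, Npy and S100a6 further below it, and Tgif1 and Lipt2 were above 0 at 24 h and near 0 at 48 h.

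At 1000 uM for 48 h, 3236 genes differed from 60 uM (30.5%), 1265 higher (11.9%) and 1971 lower (18.5%). Of 4719 probe sets that differed (25.3%), 39.6% were higher, and 71.2% of 3242 with spike-in scaling. These values share the 60 uM arrays with the comparison above, and those of each dose share the DMSO arrays, so they are given gene by gene. Ehhadh reached 73814, 74842, 77876, 80956 and 80263, above 60 uM by 2.35 ± 0.08 (limma adjusted p = 1.26e-21), and Fabp1 was above 60 uM by 1.73 ± 0.06 and Pdk4 by 2.22 ± 0.06. Cyp4a1 read 80665, 84546, 79904, 81776 and 83955 at 1000 uM (0.56 ± 0.09 above 60 uM, limma adjusted p = 2.13e-05). The highest signal on any of the 10 arrays lay between 97219 and 115819; whether signals near that range are compressed was not tested. Ccn2 went on falling, to 671, 503, 660, 727 and 599 (-2.54 ± 0.10 against 60 uM, limma adjusted p = 8.94e-20).

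Some genes had no detectable further change at the higher dose. The sulfotransferase Sult2a6 was 0.93 above DMSO at 60 uM and 0.88 at 1000 uM, and the doses differed by -0.04 ± 0.19 (limma adjusted p = 0.909). P4hb, a subunit of prolyl hydroxylase, was at 0.15 and 0.16 (0.01 ± 0.03 between the doses; its call at 60 uM ended with median centring or spike-in scaling), the acetyl-CoA synthetase Acss2 at -0.36 and -0.28 (0.08 ± 0.05) and the restriction factor Bst2 at -0.38 and -0.41 (-0.03 ± 0.09). None of these differences between the doses passed, which does not show that the doses act alike. Other genes responded at 60 uM but stood closer to DMSO at 1000 uM. Anp32a, a histone-binding phosphatase inhibitor, read 5729, 6475, 6297, 6786 and 7471 in DMSO, 4616, 4792, 5215, 4091 and 3173 at 60 uM and 6802, 7647, 8502, 7884 and 6652 at 1000 uM. Its fall of 0.60 ± 0.10 at 60 uM (limma adjusted p = 0.000101) was not seen at 1000 uM (0.19 ± 0.10 against DMSO, limma adjusted p = 0.146), which was 0.79 ± 0.10 above 60 uM (limma adjusted p = 3.12e-07). Hmox1 was 0.25 above DMSO at 60 uM and 0.09 at 1000 uM, a difference of -0.16 ± 0.05 (limma adjusted p = 0.0175). Ppl, periplakin, was the 1 gene that passed in opposite directions, reading 2465, 2396, 2261, 2748 and 2024 in DMSO, 2809, 2914, 2830, 3064 and 3132 at 60 uM and 1934, 1690, 1831, 1792 and 1695 at 1000 uM. It was 0.32 ± 0.09 at 60 uM (limma adjusted p = 0.0208, lost with median centring, spike-in scaling and without each of 4 single arrays) and -0.41 ± 0.09 at 1000 uM (limma adjusted p = 0.000468).

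**Figure D5:**
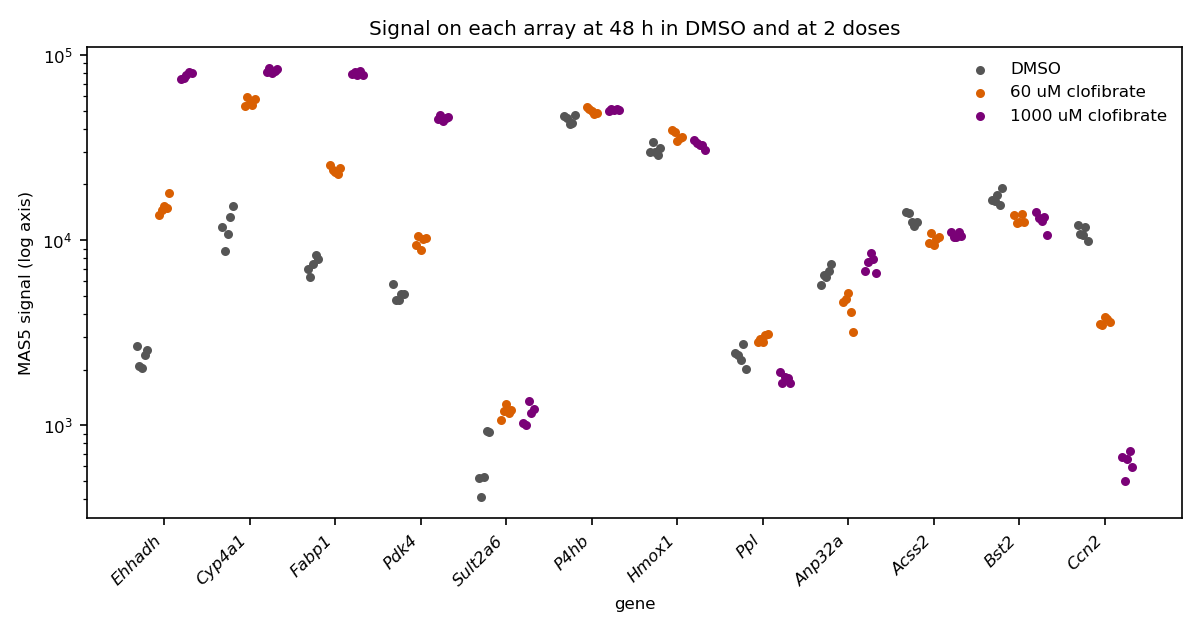
MAS5 signal on a log axis for 12 genes at 48 h on each array, DMSO in grey, 60 uM in orange and 1000 uM in purple. Ehhadh, Fabp1 and Pdk4 rose again from 60 to 1000 uM and Ccn2 fell again, while Sult2a6, P4hb, Acss2 and Bst2 lay at similar signals at both doses and Anp32a was low at 60 uM only.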

How the data were processed

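The values are the intensity (MAS5 signal, linear scale) of each probe set as deposited by the authors. MAS5 is named in the submitters' processing notes, and its version is not stated there. The log2 of each signal was taken as it stood. Of 31042 probe sets that are not controls, the 18625 with a mean log2 signal above the 40th percentile (8.00, a signal of 255) were tested.

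All 30 arrays entered 1 limma fit (limma 3.58.1, R 4.3.3) of 6 group means with variances moderated along an intensity trend, and p-values were adjusted by Benjamini-Hochberg per comparison. The fit was tested on simulated data. No batch is named in the labels. By the platform's annotation, 20826 probe sets have 1 symbol, 436 have several and 9780 have none. Symbols were updated to GRCr8 through gene identifiers for 20758 and accessions for 2, and 66 kept the platform's. Each of 10627 genes is represented by its brightest tested probe set. Of 83 pairs with another probe set of a named gene, 0 passed in opposite directions and in 40 only 1 passed. Apart from the RefSeq promoters, genes are not placed on the genome.

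Genes were named by a rule: the 10 largest rises and falls that passed with all 5 arrays beyond the other 5, the 15 largest each way in no list, up to 6 members per list by adjusted p (3 for markers of other cells), up to 8 each way by difference between the times, up to 6 each way opposite at the 2 doses, and the receptors. Other genes are said to be named after their values were seen. The members and lists were chosen with earlier results of these data known. Alternatives were median centring, quantile and spike-in scaling, a constant of 32, other filters, no trend, array number as a covariate, sets of 6 array numbers as a block (added after seeing the data), only the groups compared, and leaving out each array.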

Additional observations from a re-analysis of the deposited data

Results flagged for a closer look

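In 18 of 350 sets of 5 arrays (DMSO and 60 uM at 48 h, for 175 genes named in the text), the highest or lowest array lay apart from the other 4 by Dixon's criterion; chance gives about 1 in 20. In DMSO the highest array stood apart for Acot1 (signal 739, replicate 1), Klkb1 (signal 4758, replicate 5), Plin2 (signal 56078, replicate 5), Tdo2 (signal 75446, replicate 5) and Tpm4 (signal 13623, replicate 3). In DMSO the lowest array stood apart for Crat (signal 2184, replicate 2), Fitm2 (signal 2983, replicate 2) and Tgif1 (signal 4197, replicate 2). At 60 uM the highest array stood apart for Cav1 (signal 785, replicate 2), Cxcl12 (signal 1787, replicate 5), Cyp2d3 (signal 17531, replicate 5), Cyp3a2 (signal 4313, replicate 3) and Lbp (signal 11692, replicate 5). At 60 uM the lowest array stood apart for Lonp2 (signal 23142, replicate 1), Ncor1 (signal 2930, replicate 1), Sesn1 (signal 2178, replicate 1), Slc7a11 (signal 1387, replicate 5) and Uroc1 (signal 3973, replicate 5). Of the DMSO arrays, replicate 1 was the outlying one for 1 gene, Acot1, and replicates 2 and 5 for 3 each.

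The effect of 60 uM differed between 48 and 24 h by limma's test of the difference in 16 genes. The log2 effect at 48 h minus that at 24 h was above 0 for Amn (3.02), Cyp17a1 (0.93), Afm (0.72), Fer1l5 (0.57), Fabp1 (0.56), Smap2 (0.53) and Retsat (0.28). It was below 0 for Il1r2 (-1.28), Lipt2 (-1.13), Npy (-0.86), Pla2g15 (-0.86), Anp32a (-0.75), S100a6 (-0.68), Tgif1 (-0.65), Fundc2 (-0.52) and Pglyrp1 (-0.47). Amn, amnionless, had the largest difference and read 325, 723, 674, 323 and 488 in DMSO and 283, 167, 109, 117 and 101 at 60 uM at 24 h, against 94.9, 351, 116, 442 and 112 and 475, 399, 559, 433 and 361 at 48 h, where its DMSO arrays spanned low and high signals.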

How the results depend on the processing

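Counts are of probe sets that passed. At 60 uM and 48 h, 1686 passed (51.0% higher), and 740 with spike-in scaling (70.8% higher). Median centring gave 1365 with 43.4% higher, the other alternatives without an array left out gave 1260 to 1824, and leaving out 1 array gave 1452 to 1618. For the difference between 48 and 24 h, 16 passed, against 25 with quantile normalization, 8 with spike-in scaling and 10 without the intensity trend, and 9 to 20 with 1 array left out; the 9 came without replicate 3 of 60 uM at 24 h. Spike-in scaling moved the share of higher calls between the doses from 39.6% to 71.2%, and that of 1000 uM against DMSO from 40.2% to 68.5%. It shifted the median change of all probe sets at 48 h from -0.0044 to 0.031. The cause of these shifts was not tested. Over the 175 tested genes in the text at 48 h, 153 kept their side of the threshold under all 20 alternatives run for them. Over all 191 single-gene values, of 3973 values under alternatives 3804 had the same direction and side of the threshold, 156 lost the call, 13 gained one and 0 reversed. The list counts under other scalings and without replicate 1 of DMSO were chosen after seeing the data. The labels give no replicate numbers, but the array numbers of the titles run through the 6 groups 5 times. A fit with these 5 sets of 6 arrays as a replicate block, added after seeing the data, gave 1773 for 60 uM at 48 h and 25 for the difference between the times. Deviations of 60 uM and DMSO arrays of the same set at 48 h correlated at -0.051 to 0.052. With the 60 uM arrays of the other sets, the mean correlation of a DMSO array was -0.012 to 0.012. Of 5 DMSO arrays, 2 correlated best with their own set. Whether the arrays of a set share more than a position in the numbering is not stated in the labels and was not tested. The 5 arrays per group limit the precision, and the background limits dim probe sets: 81.1% to 84.9% of probe sets on the 10 arrays lay above the signal of controls whose targets are not added.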

Other observations

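Growth hormone dependent and sex-biased liver genes moved both ways at 60 uM and 48 h, with 6 of 24 higher and 3 lower (median 0.09). Cyp2a2 rose by 0.43 ± 0.08 and Igf1, the insulin-like growth factor, by 0.18 ± 0.04 (not with median centring or spike-in scaling; 2 other probe sets rose by 0.42 ± 0.07 and 0.26 ± 0.04), beside the fall of Cyp2c11. Carriers of the inner mitochondrial membrane had 6 of 30 higher and 4 lower, and 3 and 4 with spike-in scaling. Of all genes tested, 5.7% were higher and 5.79% lower. Slc25a29, a carrier of basic amino acids, fell, reading 4631, 4626, 3663, 2887 and 3513 in DMSO and 1391, 2246, 1810, 1843 and 1603 at 60 uM, with no overlap (-1.11 ± 0.11, limma adjusted p = 4.22e-09), and it was at -1.10 ± 0.11 at 24 h. Slc25a42, a carrier of coenzyme A, rose by 0.61 ± 0.08 and the dicarboxylate carrier Slc25a10 by 0.39 ± 0.06, while the pyrimidine nucleotide carrier Slc25a33 fell by 0.48 ± 0.09.

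In the metal and iron list 5 of 22 genes rose and 1 fell. The manganese exporter Slc30a10 rose by 0.60 ± 0.09, the BMP target Id1 by 0.42 ± 0.09 and Slc11a2, an iron importer, by 0.36 ± 0.07. Among hepatocyte transcription factors and nuclear receptors 3 of 29 rose and 1 fell, while 5 rose with quantile normalization and 1 with median centring, with spike-in scaling or without replicate 1 of DMSO. The proteasome had 3 of 32 genes higher and none lower, and 0 were higher with median centring, with spike-in scaling or without replicate 1 of DMSO. The shares over all genes tested, beside which these counts stand, were 5.7% higher and 5.79% lower.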
